A study of Canis lupus familiaris with 8 samples.

Results

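The genes described here are 55 genes of mitosis, chosen by symbol from a list that covers the kinetochore, the spindle checkpoint, sister chromatid cohesion, mitotic kinesins, cytokinesis, chromosome condensation and the anaphase-promoting complex (APC/C). Of the 55, 54 were read from the count table, which holds 37952 genes, and all of these 54 passed the filter on low counts, with which 14571 genes were tested. ARHGAP11A was not analysed here. Messenger RNA had been sequenced from monolayers of MDCK GII, an epithelial line from dog kidney, cultured overnight on an elastic membrane coated with collagen. The stretch group was held at 18% static strain, equal in both directions of the plane, for 2 hours, and the control group was the same line without applied strain. Each group had 4 wells, numbered 1 to 4 in the sample titles, and no genetic change or drug is named for either. They had been divided at random among devices, and which wells shared a device is not given in the sources used here. The submitters call the wells technical quadruplets of 1 cell line, so the errors and p-values describe the spread between wells and not between lines or animals.

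Dividing cells build a spindle of microtubules that attaches to each chromosome at the kinetochore, a protein assembly on the centromere. Until every kinetochore is attached, the spindle checkpoint holds back the APC/C, the ubiquitin ligase whose activation frees separase to cut the cohesin that joins sister chromatids. Most of these genes are transcribed in G2 and mitosis under the control of the MuvB complex with the factors MYBL2 (B-MYB) and FOXM1, and in a growing epithelial line their messenger RNA comes mostly from the cells in those phases. In a bulk sample, fewer cells in G2 and mitosis and less of these RNAs per cell cannot be told apart.

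Total counts ranged from 27047358 to 32478887 per well, and the counts of each tested mitosis gene lay between 204 and 16943 per well. Values are given as CPM, in which the counts of each well are scaled by its library total after TMM adjustment. Of the 10 epithelial markers examined all were tested, with a summed level of 5147 to 5731 CPM in control wells and 5423 to 5533 CPM in stretch wells. Fibroblast markers summed to at most 4.22 CPM, endothelial markers to at most 2.37 CPM and leukocyte markers to at most 5.43 CPM in any well. COL1A2, COL3A1, LUM and DCN of the fibroblast list and PTPRC, CD3E and ITGAM of the leukocyte list had no count in any well. For the mitosis genes 1 library stood apart from the rest, stretch replicate 3. It held the lowest of the 8 values for 53 of the 54 genes, against 16.2% of all genes tested, so log2 changes that moved by over 1.5 times without it are also given without it. Its total of 28912414 counts lay inside the range of the other wells.

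All 54 tested mitosis genes had a lower fitted level after stretch, against 51.8% of all 14571 genes. The decreases were small: the median log2 change of the 54 was -0.16 (about 10.5% lower), from -0.39 for CKAP2L to -0.01 for KIF2C, while the median over all genes was -0.0032. When stretch replicate 3 was left out, the median of the 54 was -0.10 and 51 of them were lower, against 50% of all genes. No single gene passed on its own in the model with only a stretch term. There, 0 of the 54 and 0 of all 14571 genes (0%) passed at 0.05 after Benjamini-Hochberg adjustment over all genes tested (quasi-likelihood test of edgeR), and DESeq2 called 2 of the 54 and 0.275% of all genes. At an unadjusted p under 0.05, 26 of the 54 were lower and none higher, where 1.76% of all genes were lower at that level; without stretch replicate 3 the count was 14, against 1.14% of all genes.

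Wells with the same number in the 2 groups deviated together, so the replicate number was also fitted as a block, which compares stretch with control within the same-numbered pairs. With the block, SGO1, CKAP2L, CENPF and TTK fell, 4 of the 54 (edgeR, adjusted p under 0.05 over all genes), and none rose. Over all genes 0.7% passed with the block in either direction and 0.172% passed as lower. At an unadjusted p under 0.05 with the block, 43 of the 54 were lower, against 3.9% of all genes. The number of the 54 that passed with the block ranged from 1 to 29 over the other settings tried, with 29 when no filter on low counts was applied, against 2.04% of all genes. When pair 3 was left out, 6 of the 54 passed with the block, these 4 with ASPM and KIF20A, against 1.27% of all genes. Across the groups, wells of unlike number were not compared, so the pairing by number was not shown. With a block of only 2 levels (replicates 1 and 2, replicates 3 and 4), SGO1, CKAP2L and TTK passed, 3 of the 54, against 0.398% of all genes. The members were chosen with earlier results of these data known, and the falls of SGO1, CKAP2L, WEE1 and CCNF were among those results, so these counts are a description of the list and not independent evidence for it.

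**Figure D1:**
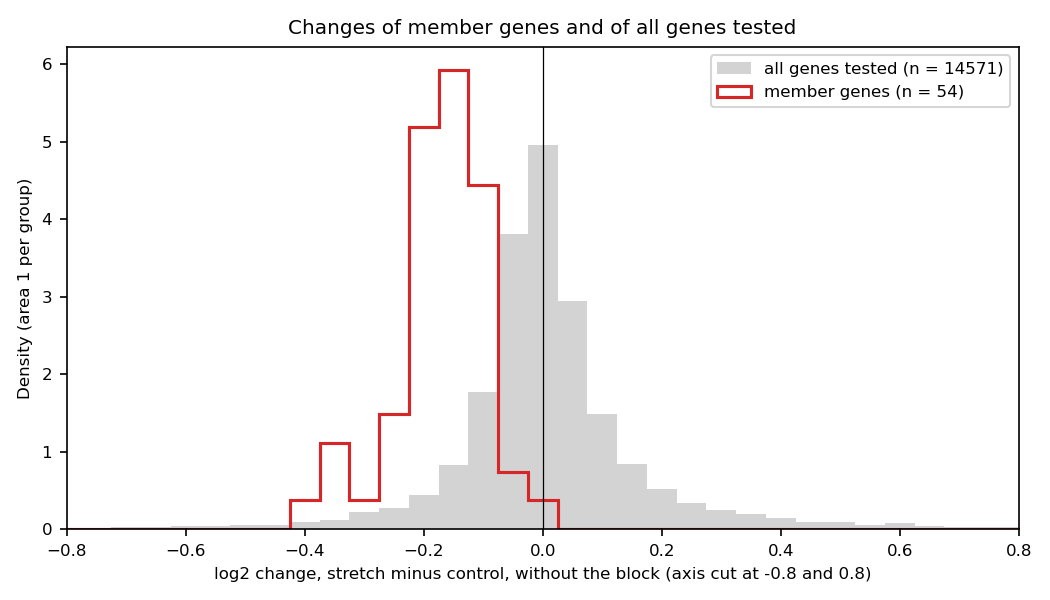
Distribution of the log2 change after stretch (horizontal axis, stretch minus control, fit without the block) as density (vertical axis) for all 14571 genes tested (grey) and for the 54 mitosis genes (red outline). The red outline lies left of 0 around its median of -0.16, except for the bar at 0 that holds KIF2C (-0.01), while the grey distribution is centred near 0.

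**Figure D2:**
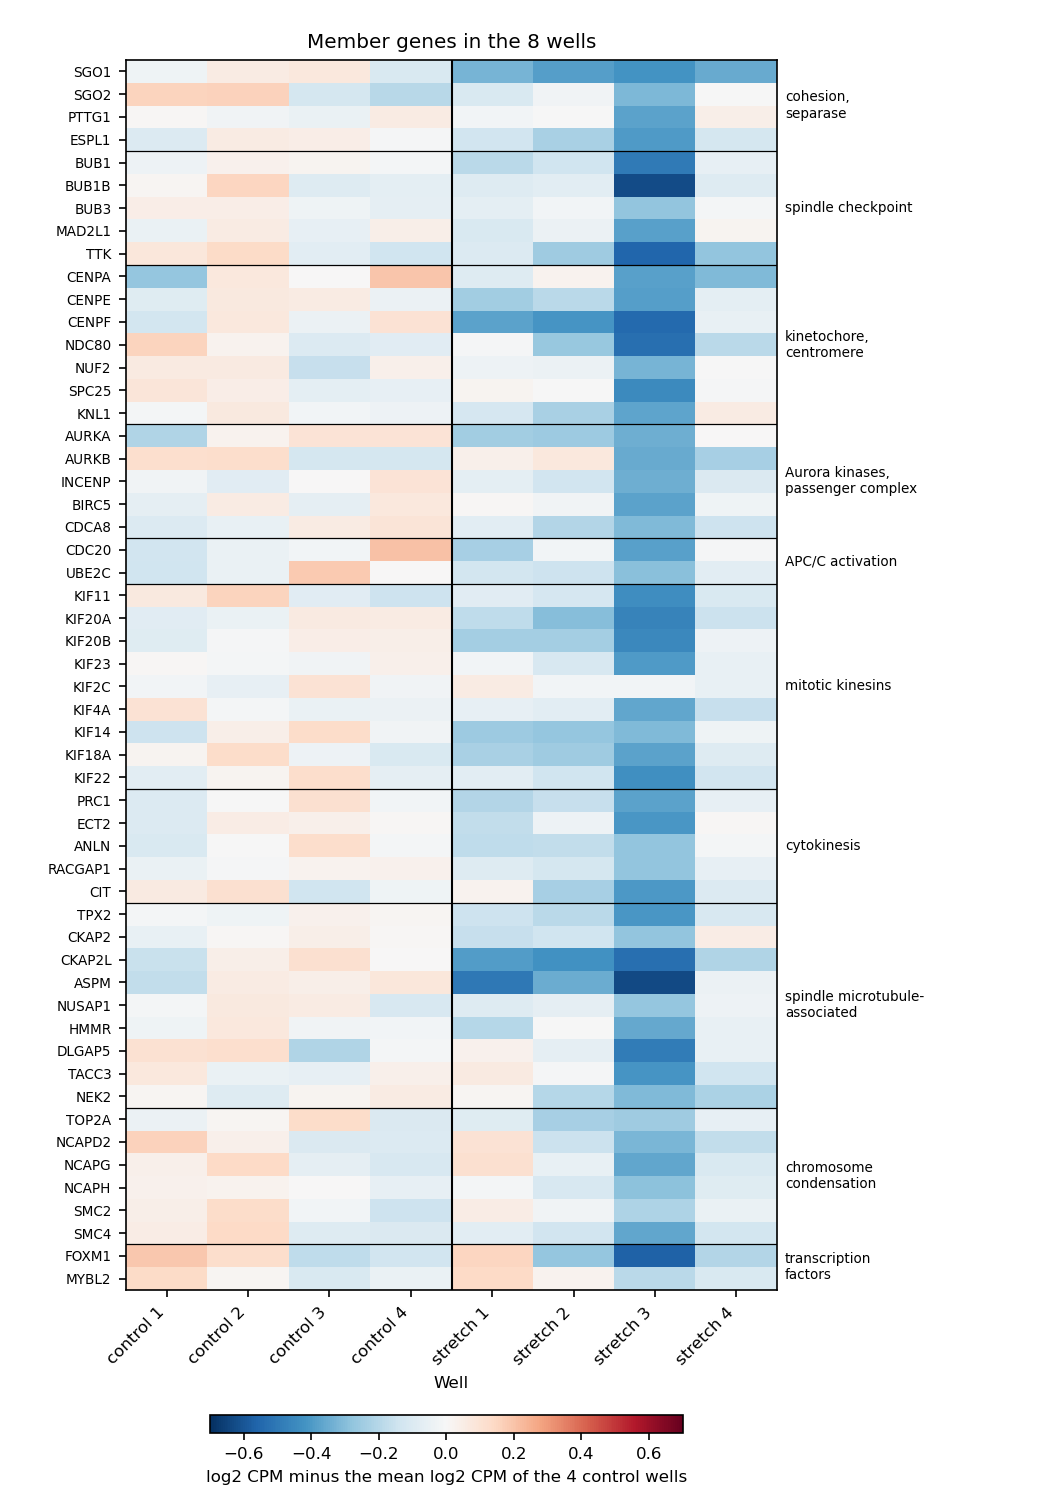
Level of each of the 54 mitosis genes (rows, grouped by function) in the 8 wells (columns), as log2 CPM minus the mean log2 CPM of the 4 control wells (colour scale from -0.7 to 0.7, blue lower, red higher). Stretch replicate 3 is the bluest column, with the lowest value of the row for 53 genes, and KIF2C is the exception.

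Among the 4 genes of cohesion and its release, SGO1 had the largest decrease and was the 1 that passed with the block. SGO1 encodes shugoshin 1, which shields the cohesin at centromeres from early removal, and lies on chromosome 23 (23653722 to 23668705, plus strand, assembly UU_Cfam_GSD_1.0). In control replicates 1 to 4, SGO1 had 35.7, 37.8, 38.3 and 33.8 CPM, and in stretch replicates 1 to 4 it had 28.9, 27.8, 27.2 and 28.4 CPM. The groups did not overlap, and the 4 stretch wells lay within 2 CPM of each other, below the lowest control well. Its log2 change was -0.37 ± 0.06 (SE) without the block and -0.37 ± 0.06 (SE) with it (edgeR, adjusted p = 0.114 and 0.00406), or -0.36 without stretch replicate 3. ESPL1 encodes separase, the protease that cuts cohesin at anaphase. ESPL1 stood at 93.4, 104, 103 and 99.4 CPM in control replicates 1 to 4 and at 91.0, 85.2, 75.9 and 91.6 CPM in stretch replicates 1 to 4. All 4 stretch wells were below the lowest control well, but the log2 change of -0.22 ± 0.07 (SE) did not pass (edgeR, adjusted p = 0.93 without and 0.135 with the block). SGO2, the related shugoshin, and PTTG1, securin, which holds separase inactive, had log2 changes of -0.12 and -0.08, and their groups overlapped. In the fit that omitted stretch replicate 3, these were -0.05 and 0.01. For PTTG1 the 3 stretch wells other than replicate 3 had 127 to 133 CPM, inside the control range of 125 to 134 CPM, and replicate 3 had 99.3 CPM.

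The spindle checkpoint was represented by 5 genes, of which 1 passed with the block. TTK, on chromosome 12 (41120015 to 41162453, plus strand), encodes the kinase MPS1, which starts checkpoint signalling at unattached kinetochores. Control replicates 1 to 4 had 72.0, 74.8, 64.9 and 61.8 CPM of TTK, and stretch replicates 1 to 4 had 63.7, 57.4, 46.5 and 56.3 CPM. Each stretch well was below its same-numbered control well, and only stretch replicate 1 reached into the control range. The log2 change was -0.29 ± 0.09 (SE) without the block and -0.29 ± 0.06 (SE) with it (edgeR, adjusted p = 0.999 and 0.0248). TTK no longer passed with the block without pair 1 or without pair 2 (edgeR, adjusted p = 0.095 and 0.139). BUB1, a kinase that marks centromeric chromatin and so places the shugoshins, had 203 to 213 CPM in control wells and 148 to 199.7 CPM in stretch wells. The groups of BUB1 did not overlap, but its log2 change of -0.21 ± 0.08 (SE) did not pass (edgeR, adjusted p = 0.999 without and 0.353 with the block). BUB1B, MAD2L1 and BUB3, parts of the complex that inhibits the APC/C, had log2 changes of -0.21, -0.12 and -0.09. Much of the difference in BUB1B lay in 1 well: stretch replicate 3 had 88.9 CPM and the other stretch wells had 129 to 130.3 CPM. Without that well the log2 change was -0.09 for BUB1B, -0.13 for BUB1, -0.04 for MAD2L1 and -0.03 for BUB3.

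All 7 kinetochore and centromere genes were lower in the fit, and CENPF passed with the block. CENPF, on chromosome 7 (12421098 to 12482469, plus strand), encodes a large coiled-coil protein of the outer kinetochore that accumulates in G2. The level of CENPF was 336, 388, 357 and 394 CPM in control replicates 1 to 4 and 284, 277, 252 and 356 CPM in stretch replicates 1 to 4. Stretch replicates 1 to 3 lay below every control well, and stretch replicate 4 lay inside the control range. Its log2 change was -0.34 ± 0.10 (SE) without the block and -0.34 ± 0.06 (SE) with it (edgeR, adjusted p = 0.938 and 0.0337), but with a block of only 2 levels (replicates 1 and 2, replicates 3 and 4) it did not pass (edgeR, adjusted p = 0.532). Nor did CENPF pass with the block without pair 1 or without pair 2 (edgeR, adjusted p = 0.058 and 0.0524). NDC80 names the complex that binds the microtubule end. For NDC80, control replicates 1 to 4 gave 71.8, 65.6, 60.4 and 61.1 CPM and stretch replicates 1 to 4 gave 64.2, 53.6, 44.8 and 56.6 CPM. NDC80 was lower in all 4 pairs and just missed the threshold with the block, at a log2 change of -0.25 ± 0.06 (SE) (edgeR, adjusted p = 0.0505, and 0.999 without the block). Without stretch replicate 3 the log2 change of NDC80 was -0.15. It shares exon sequence on the opposite strand with METTL4 and 1 uncharacterised gene. CENPE encodes the kinesin that carries chromosomes towards the spindle equator. In control replicates 1 to 4, CENPE had 102, 113, 112 and 105 CPM, and in stretch replicates 1 to 4 it had 91.2, 94.6, 82.6 and 103 CPM. Its log2 change of -0.22 ± 0.07 (SE) did not pass (edgeR, adjusted p = 0.93 without and 0.112 with the block), and stretch replicate 4 was the only stretch well inside the control range.

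The other 2 measured subunits of the NDC80 complex had smaller log2 changes. NUF2 and SPC25 both had a log2 change of -0.10, and without stretch replicate 3 these values were -0.03 and 0.00277. KNL1, the scaffold to which the BUB proteins bind, had a log2 change of -0.16, or -0.09 without that well. CENPA, the histone H3 variant that defines the centromere, had the lowest CPM of the 54 genes, 9.15 ± 1.2 in control wells and 8.03 ± 1.05 in stretch wells (mean ± SD, n = 4 each), and its groups overlapped. CENPA also shares exon sequence with 1 gene on each strand.

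The Aurora kinases and the chromosomal passenger complex, in which AURKB works with INCENP, BIRC5 (survivin) and CDCA8 (borealin) to correct wrong attachments, had log2 changes from -0.21 to -0.10, and 0 of the 5 passed in either fit. AURKA encodes the kinase of the spindle poles. AURKA stood at 79.7, 93.7, 98.5 and 98.4 CPM in control replicates 1 to 4 and at 77.8, 77.4, 72.8 and 92.3 CPM in stretch replicates 1 to 4. The fitted log2 change was -0.21 ± 0.08 (SE) (edgeR, adjusted p = 0.999 without and 0.168 with the block), with 3 of the 4 stretch wells below every control well. AURKA overlaps CSTF1 on the opposite strand. Control replicates 1 to 4 had 146, 140.3, 148 and 158 CPM of INCENP, and stretch replicates 1 to 4 had 141, 135, 117 and 138 CPM. This scaffold of the complex was lower in all 4 pairs, at a log2 change of -0.16 ± 0.06 (SE) (edgeR, adjusted p = 0.999 without and 0.195 with the block). The level of CDCA8 was 83.2, 85.9, 92.6 and 94.5 CPM in control replicates 1 to 4 and 84.6, 77.2, 71.6 and 80.5 CPM in stretch replicates 1 to 4. CDCA8 was higher in stretch than in control replicate 1, and its log2 change was -0.18 ± 0.06 (SE) (edgeR, adjusted p = 0.999 without and 0.212 with the block). AURKB and BIRC5 had log2 changes of -0.11 and -0.10. When stretch replicate 3 was left out, these were -0.04 and -0.02, and INCENP had -0.10.

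CDC20 and UBE2C, the activator and the ubiquitin-conjugating enzyme of the APC/C, both had a log2 change of -0.16. For CDC20, control replicates 1 to 4 gave 171, 182, 185 and 216 CPM and stretch replicates 1 to 4 gave 159, 185, 144 and 187 CPM. For CDC20 the log2 change carried an SE of 0.09 (edgeR, adjusted p = 0.999 without and 0.303 with the block), and stretch replicate 2 was higher than its control. In the fit that omitted stretch replicate 3, the log2 change of CDC20 was -0.09. UBE2C had 85.2 to 106 CPM in control wells and 76.5 to 89.0 CPM in stretch wells, and these ranges overlapped.

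The 9 mitotic kinesins, motors that slide, bundle or shorten microtubules, had a median log2 change of -0.19, and 0 of them passed in either fit. KIF20A, which moves passenger proteins to the midzone at anaphase, came closest. In control replicates 1 to 4, KIF20A had 138, 141, 153 and 152 CPM, and in stretch replicates 1 to 4 it had 129, 119, 106 and 132 CPM. Its groups did not overlap, and the log2 change was -0.27 ± 0.07 (SE) (edgeR, adjusted p = 0.555 without and 0.0645 with the block). KIF20A shares exon sequence with BRD8 and CDC23 on the opposite strand. Its relative KIF20B, a cytokinesis motor, was lower in all 4 pairs. KIF20B stood at 119, 126, 130.4 and 129.8 CPM in control replicates 1 to 4 and at 107, 107, 92.4 and 123 CPM in stretch replicates 1 to 4. The log2 change of KIF20B was -0.23 ± 0.07 (SE) (edgeR, adjusted p = 0.973 without and 0.104 with the block). KIF14, a motor that recruits citron kinase to the midbody, had 3 stretch wells below all control wells and replicate 4 inside the control range. Control replicates 1 to 4 had 46.6, 53.0, 56.4 and 50.6 CPM of KIF14, and stretch replicates 1 to 4 had 43.2, 42.7, 41.6 and 50.5 CPM. Its log2 change was -0.21 ± 0.08 (SE) (edgeR, adjusted p = 0.999 without and 0.211 with the block). KIF4A, a chromokinesin that also works at the midzone with PRC1, was separated between groups by a narrow margin. The level of KIF4A was 71.0, 65.5, 64.2 and 64.5 CPM in control replicates 1 to 4 and 63.7, 62.8, 51.6 and 59.2 CPM in stretch replicates 1 to 4. This gave a log2 change of -0.16 ± 0.07 (SE) (edgeR, adjusted p = 0.999 without and 0.222 with the block), and it overlaps PDZD11 on the opposite strand. KIF11, KIF18A, KIF22 and KIF23 had log2 changes from -0.23 to -0.14. Without stretch replicate 3 the log2 change was -0.10 for KIF4A, -0.11 for KIF11, -0.12 for KIF22 and -0.06 for KIF23, and the median of the 9 kinesins was -0.12.

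KIF2C, the kinetochore kinesin MCAK that takes microtubules apart, was the exception among the kinesins. For KIF2C, control replicates 1 to 4 gave 69.5, 67.7, 75.5 and 69.1 CPM and stretch replicates 1 to 4 gave 73.3, 69.4, 69.6 and 67.9 CPM. Its groups overlapped fully, with the stretch wells inside the control range, and 2 of its 4 pairs were lower. The log2 change was -0.01 ± 0.05 (SE) (edgeR, adjusted p = 0.999 without and 0.992 with the block), or -0.00376 without stretch replicate 3. It was also the only one of the 54 for which stretch replicate 3 was not the lowest well.

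**Figure D3:**
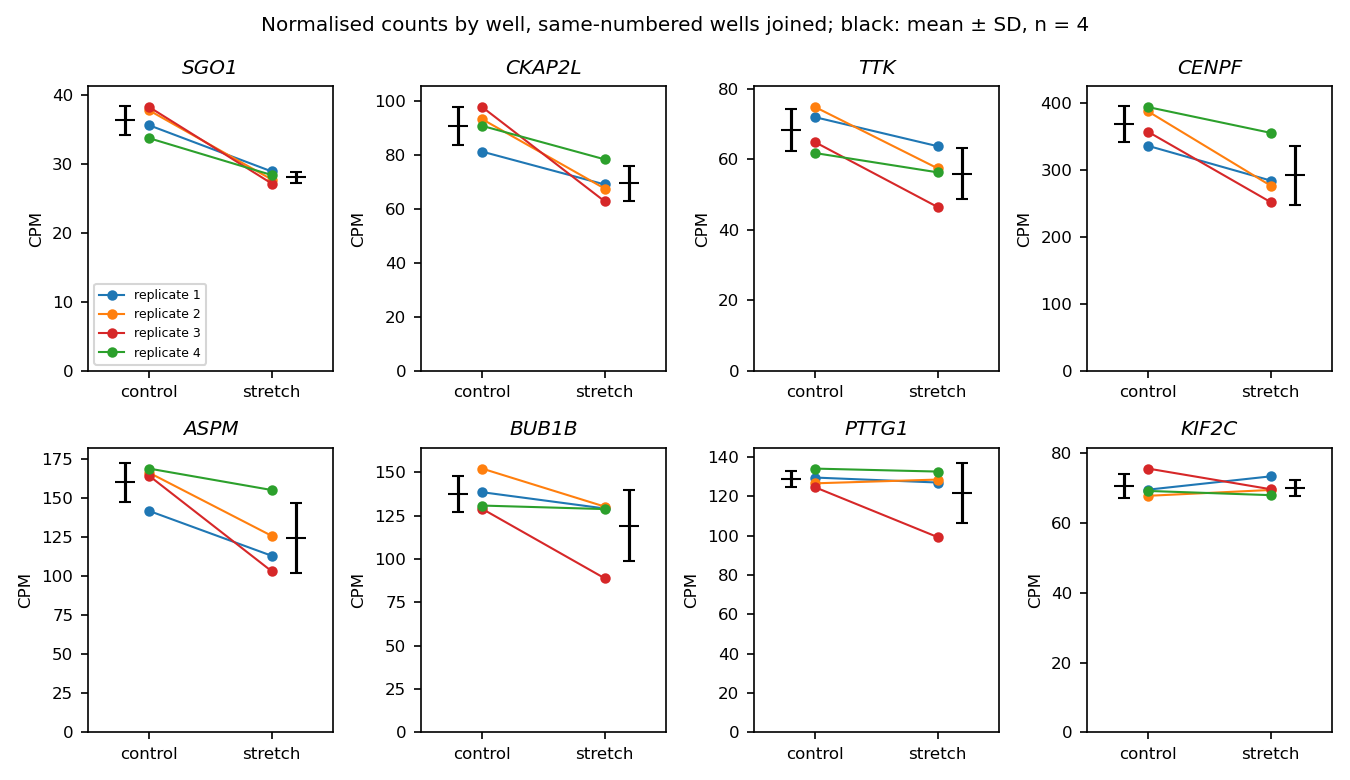
CPM (vertical axes, from 0) of 8 mitosis genes in control and stretch wells, with lines joining wells of the same replicate number and black bars for the mean ± SD of 4 wells. SGO1, CKAP2L, TTK, CENPF and ASPM are lower in all 4 pairs, BUB1B and PTTG1 differ most in replicate 3, and KIF2C stays between 67.7 and 75.5 CPM.

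Among the spindle proteins that bind microtubules, CKAP2L and ASPM had the largest differences. CKAP2L, on chromosome 17 (37114525 to 37146334, minus strand), encodes a spindle pole protein of the CKAP2 family. In control replicates 1 to 4, CKAP2L had 81.2, 93.2, 97.7 and 90.7 CPM, and in stretch replicates 1 to 4 it had 69.0, 67.5, 62.8 and 78.3 CPM. The groups did not overlap. Its log2 change was -0.39 ± 0.07 (SE) without the block and -0.39 ± 0.07 (SE) with it (edgeR, adjusted p = 0.25 and 0.0149), or -0.34 without stretch replicate 3. Without pair 2 it no longer passed with the block (edgeR, adjusted p = 0.0915). Its relative CKAP2 had a smaller log2 change, -0.13, with 109 and 111 CPM in stretch replicates 1 and 2 and 127 CPM in replicate 4, above every control well. When stretch replicate 3 was left out, the log2 change of CKAP2 was -0.08. ASPM encodes a long protein that organises microtubule minus ends at the pole and is known from inherited microcephaly. ASPM stood at 142, 166, 164 and 169 CPM in control replicates 1 to 4 and at 113, 126, 103 and 155 CPM in stretch replicates 1 to 4. Stretch replicates 1 to 3 were the 3 lowest wells, and replicate 4 was inside the control range. The log2 change of ASPM was -0.37 ± 0.12 (SE) (edgeR, adjusted p = 0.999 without and 0.135 with the block). Leaving out pair 3 gave ASPM an adjusted p of 8.3e-04 with the block (edgeR).

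TPX2, which activates AURKA and nucleates microtubules near chromosomes, was separated between the groups. Control replicates 1 to 4 had 183, 182, 189 and 188 CPM of TPX2, and stretch replicates 1 to 4 had 168, 163, 139.6 and 172 CPM. The fitted log2 change was -0.21 ± 0.06 (SE) (edgeR, adjusted p = 0.862 without and 0.0763 with the block). HMMR, a partner of TPX2 at the pole, had its highest stretch well, replicate 2, inside the control range. The level of HMMR was 100.5, 108, 101 and 101 CPM in control replicates 1 to 4 and 89.3, 102, 80.04 and 99.0 CPM in stretch replicates 1 to 4. The log2 change of HMMR was -0.15 ± 0.07 (SE) (edgeR, adjusted p = 0.999 without and 0.249 with the block). DLGAP5, which stabilises the fibres attached to kinetochores, varied with the replicate number. For DLGAP5, control replicates 1 to 4 gave 179.9, 181, 144 and 165 CPM and stretch replicates 1 to 4 gave 171, 159.7, 119 and 161 CPM. Its level in control replicate 3 was also the lowest of the control wells, and the log2 change was -0.14 ± 0.11 (SE) without and -0.14 ± 0.04 (SE) with the block (edgeR, adjusted p = 0.999 and 0.204). It shares exon sequence with 1 uncharacterised gene on the opposite strand. NEK2, a kinase that separates centrosomes, differed little in replicate 1. In control replicates 1 to 4, NEK2 had 45.3, 42.3, 45.6 and 46.8 CPM, and in stretch replicates 1 to 4 it had 45.4, 39.2, 36.3 and 38.6 CPM. This gave a log2 change of -0.18 ± 0.07 (SE) (edgeR, adjusted p = 0.999 without and 0.253 with the block). NUSAP1 and TACC3, which bundle and stabilise spindle microtubules, both had a log2 change close to -0.12, with overlapping groups. In the fit that omitted stretch replicate 3, the log2 change was -0.03 for DLGAP5, -0.03 for TACC3, -0.06 for NUSAP1 and -0.08 for HMMR.

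For cytokinesis, the division of the cell body, 5 genes were tested and 0 passed in either fit. RACGAP1, which with KIF23 forms the centralspindlin complex, had non-overlapping groups. RACGAP1 stood at 263, 271, 276 and 277 CPM in control replicates 1 to 4 and at 255, 249, 225 and 261 CPM in stretch replicates 1 to 4. The log2 change was -0.13 ± 0.05 (SE) (edgeR, adjusted p = 0.999 without and 0.206 with the block). CIT, citron kinase, acts at the midbody. Control replicates 1 to 4 had 63.1, 65.3, 54.9 and 59.3 CPM of CIT, and stretch replicates 1 to 4 had 61.6, 51.6, 45.8 and 56.7 CPM. Its log2 change was -0.17 ± 0.09 (SE) (edgeR, adjusted p = 0.999 without and 0.248 with the block), and stretch replicates 1 and 4 lay inside the control range. ANLN, the anillin of the contractile ring, had the highest CPM of the 54 after TOP2A, at 522 ± 34.3 CPM in control wells and 468 ± 36.3 CPM in stretch wells (mean ± SD, n = 4 each). PRC1, which bundles midzone microtubules, and ECT2, which activates RhoA for the ring, had log2 changes of -0.20 and -0.14. Without stretch replicate 3 the log2 change was -0.09 for RACGAP1, -0.10 for CIT and -0.06 for ECT2. ANLN and PRC1 each share exon sequence with 1 gene on the opposite strand.

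Condensin and topoisomerase genes, which compact and untangle the chromosomes, had the smallest median decrease of the groups of more than 2 genes, -0.13 over 6 genes. SMC4, an ATPase subunit of condensin, had the largest decrease among them and was lower in all 4 pairs. The level of SMC4 was 275, 293, 250.1 and 247 CPM in control replicates 1 to 4 and 252, 242, 206 and 243 CPM in stretch replicates 1 to 4. The fitted log2 change was -0.17 ± 0.07 (SE) (edgeR, adjusted p = 0.999 without and 0.0884 with the block). NCAPD2, a regulatory subunit of condensin I, also varied with the replicate number. For NCAPD2, control replicates 1 to 4 gave 209.6, 192, 175 and 176 CPM and stretch replicates 1 to 4 gave 201, 169, 150.3 and 166 CPM. Both wells of replicate 1 were the highest of their group, and the log2 change was -0.13 ± 0.09 (SE) (edgeR, adjusted p = 0.999 without and 0.179 with the block). It shares exon sequence with MRPL51 on the opposite strand. TOP2A, NCAPH, NCAPG and SMC2 had log2 changes of -0.16, -0.12, -0.10 and -0.06. NCAPG and SMC2 were each lower in 2 of the 4 pairs. When stretch replicate 3 was left out, the log2 change was -0.11 for SMC4, -0.07 for NCAPD2, -0.07 for NCAPH, -0.01 for NCAPG and -0.01 for SMC2, and the median of the 6 genes was -0.07.

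The 2 transcription factors that drive this set of genes differed from each other in size of change, a difference that was not tested. In control replicates 1 to 4, FOXM1 had 76.9, 73.5, 59.5 and 61.5 CPM, and in stretch replicates 1 to 4 it had 74.9, 56.0, 45.5 and 58.5 CPM. FOXM1 had its lowest level in stretch replicate 3, and both wells of replicate 1 were the highest of their group. This gave a log2 change of -0.21 ± 0.14 (SE) without the block and -0.22 ± 0.06 (SE) with it (edgeR, adjusted p = 0.999 and 0.178), or -0.10 without stretch replicate 3. MYBL2 had 254 to 300.0 CPM in control wells and 240.1 to 301 CPM in stretch wells, with a log2 change of -0.03, or 0.02 without stretch replicate 3.

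**Figure D4:**
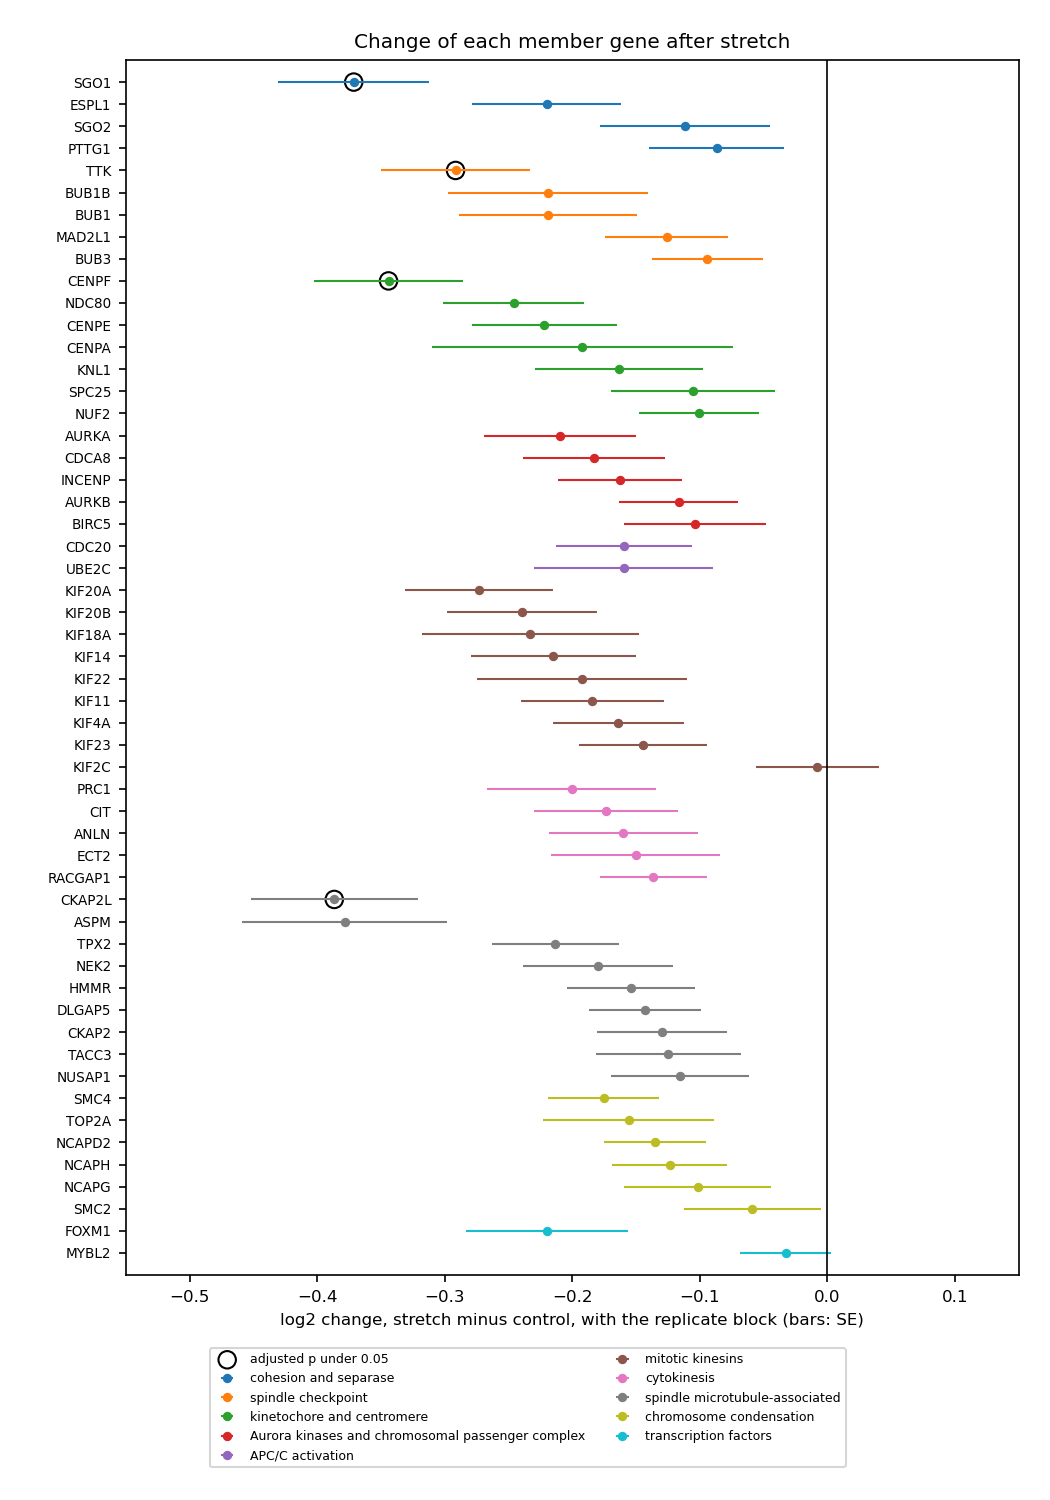
Log2 change after stretch with the replicate block (horizontal axis, points, with bars for the SE) of the 54 mitosis genes (vertical axis), coloured by function, with black circles around the 4 genes with an adjusted p under 0.05. The points run from about -0.39 for CKAP2L to -0.01 for KIF2C, and all lie below 0.

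Seen by group, the median log2 change was -0.21 for the checkpoint, -0.19 for the kinetochore and for the kinesins, -0.17 for cohesion, -0.16 for the passenger complex, the APC/C and cytokinesis genes, -0.15 for the microtubule-associated proteins, -0.13 for condensation and -0.12 for the transcription factors. Of the 54 genes, the 29 outside the 25 that the naming rule picked, KIF2C among the 29, had log2 changes from -0.23 to -0.01 and adjusted p from 0.261 to 0.992 with the block (edgeR), and 26 of the 29 were lower without stretch replicate 3. The group medians differed by less than the range within most groups, and the differences between groups were not tested. Their order also changed without stretch replicate 3, when the median was -0.13 for the kinetochore, -0.12 for the kinesins, -0.11 for cohesion, -0.10 for the passenger complex, the APC/C and cytokinesis genes, -0.09 for the checkpoint, -0.08 for the microtubule-associated proteins, -0.07 for condensation and -0.04 for the transcription factors. In 8 of the 54 genes (SGO1, ESPL1, BUB1, KIF20A, KIF4A, RACGAP1, TPX2 and CKAP2L) all 4 stretch wells lay below all 4 control wells, against 1.24% of all genes tested, and in 0 of them all lay above, against 1.3%. In 30 of the 54 every same-numbered pair was lower, against 7.84% of all genes. All 54 were lower in pair 3, so the same 30 were those lower in pairs 1, 2 and 4, against 13.9%.

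The size of the decrease differed between pairs. The median log2 difference of the 54 genes between same-numbered wells was -0.08 in replicate 1, -0.16 in replicate 2, -0.36 in replicate 3 and -0.06 in replicate 4. The number of genes lower after stretch was 44, 49, 54 and 41 of 54 in these pairs, against 48.3%, 50.3%, 51.7% and 49.7% of all genes. The median was thus below 0 in each pair and farthest below it in pair 3. The 54 genes together took 0.813 ± 0.0207% of all counts in the control group and 0.727 ± 0.061% in the stretch group (mean ± SD, n = 4 each), from 0.799% to 0.843% in control wells and from 0.637% to 0.769% in stretch wells. In stretch wells 1, 2 and 4 this share was at least 0.739%, still below every control well.

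Taken over all 8 wells, the genes also varied together within the groups, but hardly so without stretch replicate 3. Over all pairs of the 54 genes, the deviations from the group means across the 8 wells had a mean Pearson r of 0.539, against 3.8e-04 over all genes tested. With stretch replicate 3 left out the mean r was 0.07 over 7 wells, and among the 4 control wells it was 0.0508. All pairs share the same libraries, and no p is given.

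Levels between genes can be compared only per length of exon sequence. As RPKM (counts scaled by library total and by exon length) in control wells, the median of the 54 genes was 36.0. BIRC5 had the highest level, 120.5 ± 6.25 RPKM (mean ± SD, n = 4), followed by PTTG1 with 115 ± 3.68 and CDC20 with 108 ± 11.2. CENPA and KIF18A had the lowest, 3.86 ± 0.508 and 4.83 ± 0.336 RPKM. The 3 most abundant by this measure had log2 changes between -0.16 and -0.08, smaller in size than those of SGO1 (11.1 ± 0.633 RPKM), TTK (17.5 ± 1.55 RPKM) and ASPM (15.3 ± 1.19 RPKM). Across the 54 genes, the log2 change and the log2 control RPKM correlated at 0.359 (Pearson's r) and 0.439 (Spearman's rho). With the log2 control CPM, which leaves out length, the values were lower, at 0.137 and 0.168, and with the log2 exon length they were -0.321 and -0.32. All genes share the same libraries, and no p is given.

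Other genes of the cell cycle were counted from 8 lists of 153 genes, of which 151 were tested. In these lists 127 of 151 were lower, against 51.8% of all genes, with a median log2 change of -0.08. Without stretch replicate 3 the count was 106 of 151, against 50% of all genes, and the median was -0.05. With the block 3 of the 151 passed, all lower (edgeR, adjusted p under 0.05 over all genes), against 0.172% of all genes. The list of mitotic entry genes and cyclins had 13 of 15 lower and a median of -0.19, and WEE1 and CCNF passed with the block (edgeR, adjusted p = 0.00246 and 0.0151). WEE1 stood at 121, 124, 123 and 119.5 CPM in control replicates 1 to 4 and at 103, 91.8, 95.4 and 103 CPM in stretch replicates 1 to 4. WEE1, the kinase that delays entry into mitosis, had all 4 stretch wells below all 4 control wells, with its lowest value in stretch replicate 2. CCNF, a cyclin that serves as a ubiquitin ligase subunit, had 137 ± 14.5 CPM in control wells and 106 ± 10.2 CPM in stretch wells (mean ± SD, n = 4 each) and overlaps 1 gene on the opposite strand. The call of CCNF was lost without pair 2 or pair 4 (edgeR with the block, adjusted p = 0.111 and 0.098). Of other spindle and cytokinesis genes 26 of 30 were lower with a median of -0.12, and TROAP, a spindle protein, passed with the block at a log2 change of -0.27 ± 0.05 (SE) (edgeR, adjusted p = 0.0147), but not without pair 1 or pair 4 (edgeR, adjusted p = 0.0788 and 0.098). Other kinetochore and centromere genes were lower in 28 of 32 with a median of -0.09, and 0 of them passed in either fit.

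The other 5 lists had medians closer to that of all genes. Cohesin and its regulators had 12 of 14 lower and a median of -0.08, S phase genes 22 of 26 and -0.07, APC/C core subunits and regulators 15 of 19 and -0.04, the 3 other condensin genes 2 of 3 and -0.05, and the DREAM and MuvB complex 9 of 12 and -0.01. In these 5 lists 0 genes passed in either fit, and the genes with the smallest p were RAD21, CDC45, FBXO5, NCAPG2 and LIN54 (edgeR with the block, adjusted p = 0.174, 0.249, 0.148, 0.644 and 0.192). LIN54 overlaps 1 gene on the opposite strand. CDC45, a replication helicase component, was higher in 4 of 4 pairs, at a log2 change of 0.17 ± 0.15 (SE). Stretch replicate 3 was the lowest well for 7 of the 15 mitotic entry genes, 18 of 30 other spindle and cytokinesis genes, 17 of 32 other kinetochore genes, 15 of 26 S phase genes, 4 of 14 cohesin genes, 7 of 19 APC/C genes, 3 of 3 other condensin genes and 1 of 12 DREAM genes. Without that well the median was -0.13 for mitotic entry with 13 of 15 lower, -0.07 for other spindle and cytokinesis genes with 24 of 30, -0.05 for other kinetochore genes with 25 of 32 and -0.07 for cohesin with 11 of 14. It was -0.02 for S phase with 16 of 26 lower, -0.02 for the APC/C with 10 of 19 and -0.0059 for other condensin with 2 of 3, and for DREAM it turned to 0.0016 with 5 of 12 lower. The differences between lists were not tested.

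**Figure D5:**
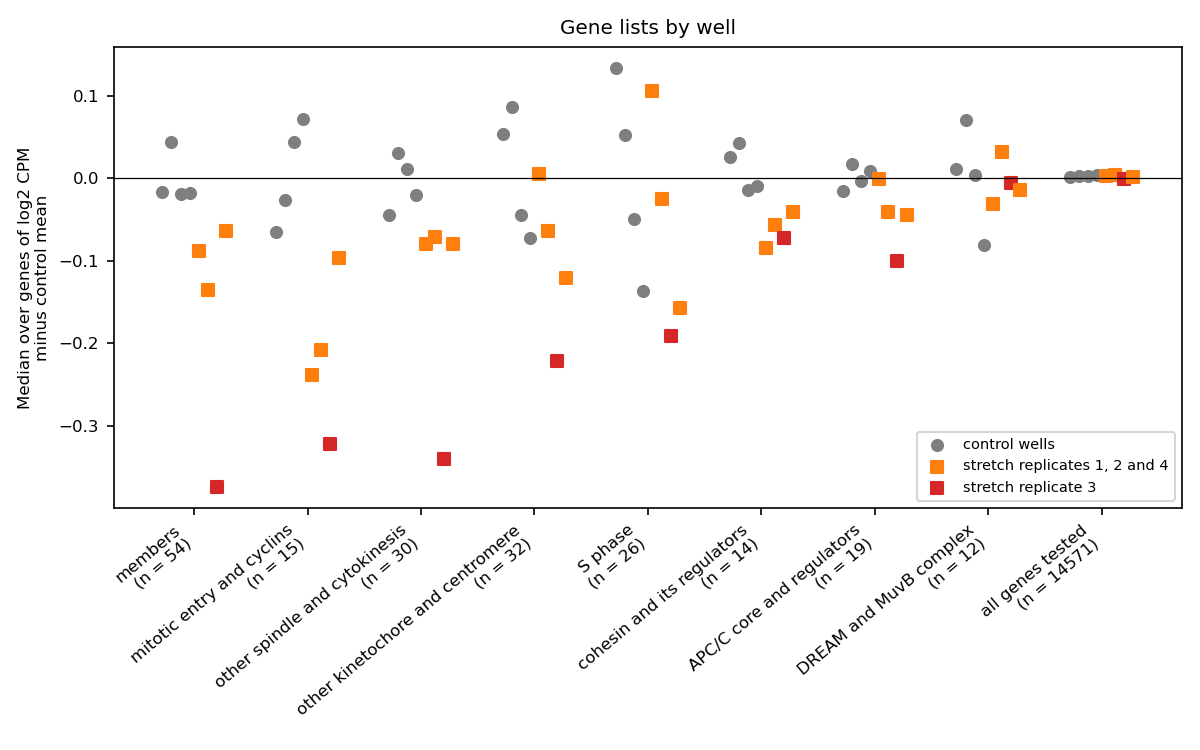
Median over the genes of each list with more than 3 genes (horizontal axis, number of genes tested in brackets) of log2 CPM minus the mean of the control wells (vertical axis), with grey circles for the 4 control wells, orange squares for stretch replicates 1, 2 and 4 and red squares for stretch replicate 3. For the 54 mitosis genes (members) all 4 stretch wells lie below the control wells, replicate 3 at -0.37 and the others between -0.14 and -0.06, while the medians over all genes lie at 0.

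The libraries were prepared with a stranded kit, but whether reads were counted by strand is not given in the sources used here. The values of the 13 mitosis genes that share exon sequence with a gene on the opposite strand are therefore uncertain. The other 41 were all lower, with a median log2 change of -0.16. Without stretch replicate 3, 38 of the 41 were lower and the median was -0.09. What set stretch replicate 3 apart was not tested.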

How the data were processed

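RNA from 4 control and 4 stretch wells was sequenced from stranded polyA TruSeq libraries, per the labels. The deposited values are raw exon counts of each gene, which the authors made from the reads, and the submitters' processing notes name FastQC 0.11.8, Trim Galore 0.6.5, STAR 2.7.3a, Subread and featureCounts. The strand setting of the counting and the treatment of reads with several matches are not given in the sources used here, and both can move counts of overlapping or duplicated genes. The deposited table names no genome build. Of its 37952 genes, 37291 matched symbols of the RefSeq table for UU_Cfam_GSD_1.0, all 37291 with identical start and end. The 8 count columns were matched to samples by library name, and 0 columns belonged to no sample.

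Counts were tested in R 4.3.3 with edgeR 4.0.16 (glmQLFit with robust estimation, glmQLFTest). TMM factors scaled the library sizes, filterByExpr (minimum count 10, minimum total 15) kept 14571 genes, and two-sided p-values were adjusted by the Benjamini-Hochberg method over all of them, with 0.05 as the threshold. The model had a stretch term only. A second fit added the replicate number as a block, because the deviations of same-numbered wells from their group means correlated in all 4 pairs (Pearson r across genes of 0.328, 0.108, 0.182 and 0.178). The pairing comes from the sample titles and this check, and the labels do not say what the number marks. Wells of a group were compared to look for a library entered more than once, and no pair agreed within sampling noise (chi-square per degree of freedom from 5.56 to 26.8). The procedure was also run on simulated data, with genes drawn independently and changes larger than those of the mitosis genes. That run does not cover changes of the size seen here or a well that stands apart. CPM are given after TMM scaling, and RPKM used the exon length in the table. Total counts per well of 27047358 to 32478887 gave each mitosis gene at least 204 counts.

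The mitosis genes and all lists were chosen with earlier results of these data known. The rule for values in every well took each gene passing in either fit, then those with the smallest p with the block up to 24, and at least 1 gene per function; other values shown were chosen after they were seen. Of each other list the genes passing with the block, or else the 1 with the smallest p, were named, and 1 such gene is not reported here. Alternatives were DESeq2 1.42.0, limma-voom (limma 3.58.1), other scaling factors, other filters, the block and a 2-level block, and leaving out single wells, pairs, or 2 of the 4 pairs. Figures used matplotlib 3.10.9.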

Additional observations from a re-analysis of the deposited data

Results flagged for a closer look

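A well was set aside for a closer look where its gap to the nearest other well, as a share of the group's range, passed Dixon's 95% critical value. Of 128 groups of 4 wells examined, 9 did so, where about 6.4 would by chance (about 1 in 20), and 6 of the 9 lay in stretch replicate 3. Among the NDC80 complex genes, NUF2 had 51.2 CPM in stretch replicate 3 against 62.2 to 63.9 CPM in the other stretch wells, and SPC25 had 28.9 against 39.1 to 39.8 CPM. NUF2 also had 57.3 CPM in control replicate 3, below the 65.7 to 66.9 CPM of the other control wells. The checkpoint gene BUB1B had 88.9 CPM in stretch replicate 3 and 129 to 130.3 CPM in the other stretch wells. Securin, PTTG1, had 99.3 CPM there against 127 to 133 CPM, and BIRC5 had 59.2 against 75.0 to 77.2 CPM. KIF11, the motor that pushes spindle poles apart, had 222 CPM there against 276 to 284 CPM. HMMR stood out on the high side, with 108 CPM in control replicate 2 against 100.5 to 101 CPM in the other control wells. Control replicate 2 also stood apart for the mitosis genes as a whole: their median log2 deviation from the control mean was 0.043, against -0.020 to -0.017 in the other control wells. What set these wells apart was not tested.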

How the results depend on the processing

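The direction of the list held under the settings tried: 50 to 54 of the 54 genes were lower, and the lowest count came from replicates 1 and 2 only. Apart from the fits on only 2 of the 4 pairs, the median log2 change lay between -0.20 and -0.10. Single genes changed sign in 12 cases. KIF2C was higher without control replicate 3 (0.027; -0.028 to 0.027 over the wells left out), without stretch replicate 4 (0.010), with the block without pair 3 (0.028) and in replicates 1 and 2 only (0.057). MYBL2 was higher without control replicate 1 (0.018), without stretch replicate 3 (0.021; -0.087 to 0.021 over the wells left out) and in replicates 1 and 2 only (0.0073). PTTG1 (0.0089; -0.12 to 0.0089) and SPC25 (0.0028; -0.14 to 0.0028) were higher without stretch replicate 3, CENPA (0.051) and TACC3 (0.014) in replicates 1 and 2 only, and SGO2 (0.015) in replicates 3 and 4 only.

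Counts of genes past the threshold moved with the setting, given here for all genes, for the 54 mitosis genes and for the 8 other lists; edgeR without the block gave 0, 0 and 0. The replicate block gave 102, 4 and 3, and a block of 2 levels 58, 3 and 2. DESeq2 gave 40, 2 and 2 without the block and 145, 12 and 6 with it. Without a filter on low counts the numbers were 11, 2 and 1, or 448, 29 and 26 with the block. Other fits with the block gave 100, 4 and 3 (limma-voom), 105, 5 and 4 (DESeq2 size factors), 111, 7 and 4 (library size only) and 97, 4 and 3 (at least 10 counts in every well). Replicates 1 and 2 only gave 51, 2 and 1, and replicates 3 and 4 only gave 25, 0 and 0. Leaving out 1 well without the block gave 0 to 12 of all genes and 0 of both lists, and leaving out 1 pair with the block gave 43 to 186, 1 to 8 and 2 to 4 (of all genes 43 without pair 1, 67 without pair 2, 186 without pair 3 and 74 without pair 4). The number of mitosis genes whose groups did not overlap, 8, ranged from 8 to 19 when 1 well was left out, since fewer wells must be separated. It was 18 without control replicate 1, 14 without control replicate 4, 19 without stretch replicate 1 and 19 without stretch replicate 4. The share over all genes was not counted with a well left out, so these numbers are no result about the mitosis genes. The causes of the other changes were not tested. The planned count of promoter motifs was not run, because no promoter sequences were used here. The wells come from 1 line, strain and time, and depth did not limit detection of any of the 54 genes.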
